A study of Mus musculus and Rattus norvegicus with 2 samples.

Results

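The miR-30 family is a set of closely related microRNAs, here miR-30a, miR-30b, miR-30c, miR-30d and miR-30e, followed through their arms, lengths and end forms in small RNA of caput epididymal sperm. Members were the sequences whose matched entry in the deposited tables was one of these 5 microRNAs, on either arm. They came to 75 of 914516 listed sequences in the mouse library, with 3676 reads, and to 182 of 650877 in the rat library, with 9883 reads. Of these reads, 99.97% in mouse and 99.8% in rat aligned to the arm their entry named. This is no independent check, since each read already matched its entry with at most 2 mismatches. The miR-30b and miR-30d arms were themselves taken from mouse reads under those entries. The mouse library was from C57BL/6 animals of 2 months and the rat library from Sprague Dawley young adults of 450 g. Both held small RNA of 18 to 45 nt from sperm of the caput, the head of the epididymis, and neither group carried a treatment or an altered allele. Each species had 1 library, so there was no replicate, no test was possible, and species and library cannot be told apart. Intervals below are exact 95% intervals that cover counting error only, since PCR copies are not independent molecules.

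MicroRNAs are cut from a hairpin whose 5p and 3p arms can each give a mature strand, and the seed, bases 2 to 8, does most of the pairing with target messages. The miR-30 family is expressed in many tissues and is known for repressing Becn1, a starter of autophagy, and Dll4, a Notch ligand. Sperm passing through the caput take up small RNA from vesicles shed by the epididymal epithelium.

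The mature sequences are shown because the family is defined by them and because the members are told apart by few bases. They are from RefSeq, mouse build GRCm38.p6, written 5′ to 3′ with the seed in capitals.
miR-30a-5p: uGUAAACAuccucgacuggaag
miR-30c-5p: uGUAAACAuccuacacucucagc
miR-30e-5p: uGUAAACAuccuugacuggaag
miR-30a-3p: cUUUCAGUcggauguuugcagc
miR-30e-3p: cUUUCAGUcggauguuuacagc
miR-30c-1-3p: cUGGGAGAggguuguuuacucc
miR-30c-2-3p: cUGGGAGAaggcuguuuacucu
The 5p arms share a single seed. The 3p arms fall into a seed shared by miR-30a and miR-30e and another shared by both miR-30c copies. miR-30a-5p and miR-30e-5p differed at 1 of 22 bases and their 3p arms at 1 of 22, whereas miR-30a-5p and miR-30c-5p differed at 5 of 22. Inside the reads, away from the last base, 0.041% of mouse bases and 0.055% of rat bases of the 5p arms did not match.

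In the mouse genome (GRCm38.p6), Mir30a lies on the plus strand at chr1:23272269-23272339 and overlaps no annotated gene. Mir30c-2 follows it on that strand at chr1:23291701-23291784, after a gap of 19361 nt, in an exon of the long noncoding RNA Gm27028. Mir30c-1 at chr4:120769534-120769622 and Mir30e at chr4:120772606-120772697, both on the minus strand and 2983 nt apart, lie within introns of Nfyc, a subunit of the transcription factor NF-Y. The 2 copies of miR-30c give the same 5p strand, so their 5p reads cannot be assigned to a locus.

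The libraries held 11760708 listed reads in mouse and 14652889 in rat, and levels are reads per 1000000 of these (rpm). Entries of miRBase, the microRNA registry, took 4.96% of the mouse reads and 1.73% of the rat reads. Marker microRNAs of cell types differed between the libraries. The summed level of 3 germ-line markers (miR-34b, miR-34c and miR-449a, none at 0) was 14.2 rpm in mouse and 900.3 in rat. The sum of 7 epithelial markers by entry name was 225 and 370, with miR-203 at 0 in rat by name (132 rat reads by core sequence of miR-203-3p). Within it miR-200c went the other way, at 59.6 rpm in mouse and 2.05 in rat. By core sequence miR-200c-3p had 740 mouse and 263 rat reads, a log2 ratio of -1.81. miR-200b-3p, higher in rat by name, had 430 and 561 by core (log2 0.07). Smooth muscle markers, of which miR-143 gave nearly all reads and miR-145 was at 0 in mouse, summed to 832 and 1854. Sums of 4 leukocyte markers were 0.765 and 17.5, with miR-223 and miR-155 at 0 in mouse, the single endothelial marker miR-126 was at 16.0 and 26.96, and 3 red cell markers summed to 7.14, with miR-144 at 0, and 5.53, with miR-486 at 0. Of the red cell markers miR-486 had 80 mouse reads and 0 rat reads, while miR-451 had 4 and 68 and miR-144 had 0 and 13. By core sequence miR-451a had 11 mouse reads and 501 rat reads, so the red cell sums depend on the entry names. All marker sums here are by entry name. Skeletal and heart muscle markers summed to 0.340 and 0.614, with miR-1 at 0 in mouse. The part of these differences in the miR-30 values was not tested. In such bulk RNA, fewer cells of a type and less RNA per cell cannot be told apart.

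Under its miRBase entries, the whole family was at 313 rpm in mouse (interval 303 to 323) and 674 in rat (661 to 688). The rat library was thus 2.16-fold higher (2.08 to 2.24), a log2 ratio of 1.11. This ratio follows the reference chosen. Against all miRBase reads, of which the family took 0.631% in mouse and 3.90% in rat, it was 2.63. With miR-10a and miR-10b left out of the miRBase reads it was 0.70, and with SNORD58, a small nucleolar RNA abundant in the mouse library, left out of the listed reads it was 0.51. This last reference is one-sided: it takes the mouse total from 11760708 to 7739259 reads and leaves the rat total at 14652889, since no rat sequence was listed under that name. Changing the reference shifts every log2 ratio by the same amount: +1.52 for miRBase reads, -0.41 without miR-10 and -0.60 without SNORD58.

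miR-30a-5p, which leads the family in both species, had 2574 reads (219 rpm) in mouse and 6390 (436 rpm) in rat, a 1.99-fold ratio. It stood 12th among 391 miRBase names in mouse and 6th among 377 in rat. miR-30d-5p, which was next in both libraries, had 324 reads (27.5 rpm) and 1476 (100.7 rpm), 3.65-fold higher in rat (3.24 to 4.14). In mouse its level and that of miR-30b-5p overlapped within counting error, and in rat they did not.

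miR-30b-5p had 313 reads (26.6 rpm) in mouse and 599 (40.9 rpm) in rat, a log2 ratio of 0.62 that came to 0.01 without SNORD58. miR-30c-5p had 204 reads (17.3 rpm) and 507 (34.6 rpm), 1.99-fold higher in rat. miR-30e-5p was the scarcest 5p arm under its own entry, with 64 reads (5.44 rpm) and 303 (20.7 rpm), 3.78-fold higher in rat. All 5 of these 5p arms were thus at a higher rpm in the rat library, miR-30d and miR-30e by the larger ratios, with miR-30b at parity once SNORD58 was left out of the mouse total.

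Of the 3p arms, miR-30a-3p was the most abundant, with 129 reads in mouse (10.97 rpm) and 291 in rat (19.9 rpm). miR-30e-3p had 47 (3.996 rpm) and 232 (15.8 rpm), 3.93-fold higher in rat (2.89 to 5.54). The others were rare. miR-30c-2-3p had 11 and 47 reads, miR-30d-3p 4 and 19, miR-30c-1-3p 3 and 3, and miR-30b-3p 2 and 1. Of these 4, only the ratios of miR-30c-2-3p (log2 1.73, 0.81 to 2.87) and miR-30d-3p (1.80, 0.34 to 3.95) had counting intervals above 0, and that of miR-30d-3p reached below 0 without SNORD58, and against miRBase reads without miR-10. All 11 arms had reads in both libraries. miR-384-5p, which carries the family seed with other bases after it, had 0 reads in both, which allows up to 0.255 rpm in mouse and 0.205 in rat.

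Reads of the family did not stop at these entries. Another 1955 mouse reads (62 sequences) and 5799 rat reads (159 sequences) aligned to a miR-30 arm but were listed under GenBank records of microRNA precursors. They made up 34.7% (33.5 to 36.0) of all 5631 mouse miR-30 reads and 37.0% (36.2 to 37.7) of 15682 rat reads. Reads under the miRBase entries were 18 to 23 nt long, no longer than the annotated mature strands, and the longer ones were under the precursor records. A count by entry name therefore covers only the shorter forms. For miR-30b and miR-30d, the mature arm was the longest exact mouse read under the entry. For their exact mouse reads this limit thus holds by construction, and their annotated start and end below are those of that read.

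The share under precursor records differed widely by member. It was 22.7% in mouse and 31.0% in rat for miR-30a-5p, and 6.01% and 2.92% for miR-30b-5p. It was 73.2% and 47.5% for miR-30c-5p, 57.5% and 45.3% for miR-30d-5p, and 71.4% and 79.3% for miR-30e-5p. For miR-30e in both libraries, and for miR-30c and miR-30d in mouse, more reads lay outside the named entry than in it. Among the other microRNAs with at least 100 reads, the median share outside miRBase entries was 17.6% in mouse (56 microRNAs) and 19.4% in rat (79), so miR-30a-5p lay between the median and the upper quartile and the 5p arms of miR-30c, miR-30d and miR-30e above that quartile, which was 43.6% and 41.4%.

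With these reads counted, the family was at 479 and 1070.2 rpm, a log2 ratio of 1.16 (1.12 to 1.20), but single members moved. miR-30c-5p came to 761 reads (64.7 rpm) in mouse and 966 (65.9 rpm) in rat. Its 1.99-fold ratio by name became 1.02-fold (0.926 to 1.12), and it was lower in rat without SNORD58 (log2 -0.58), without miR-10 in the miRBase reference (-0.38) and without the most abundant sequence (-0.18). It was higher in rat against miRBase reads (1.54), also with GenBank microRNA records added to them (1.59). Its reads under precursor records were 47.4 rpm in mouse and 31.3 in rat, the opposite order to those under its own entry.

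miR-30e-5p went the other way. It came to 224 reads (19.05 rpm) in mouse and 1465 (99.98 rpm) in rat, 5.24-fold (4.56 to 6.07), and was higher in rat under each of the 5 other references, with log2 ratios from 1.79 to 3.95. In the order of rat 5p levels it passed both miR-30b and miR-30c. miR-30d-5p came to 763 reads and 2696, 2.83-fold, and miR-30a-5p to 3329 and 9267, 2.23-fold. miR-30b-5p came to 333 and 617, a log2 ratio of 0.57 that was -0.03 without SNORD58.

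**Figure D1:**
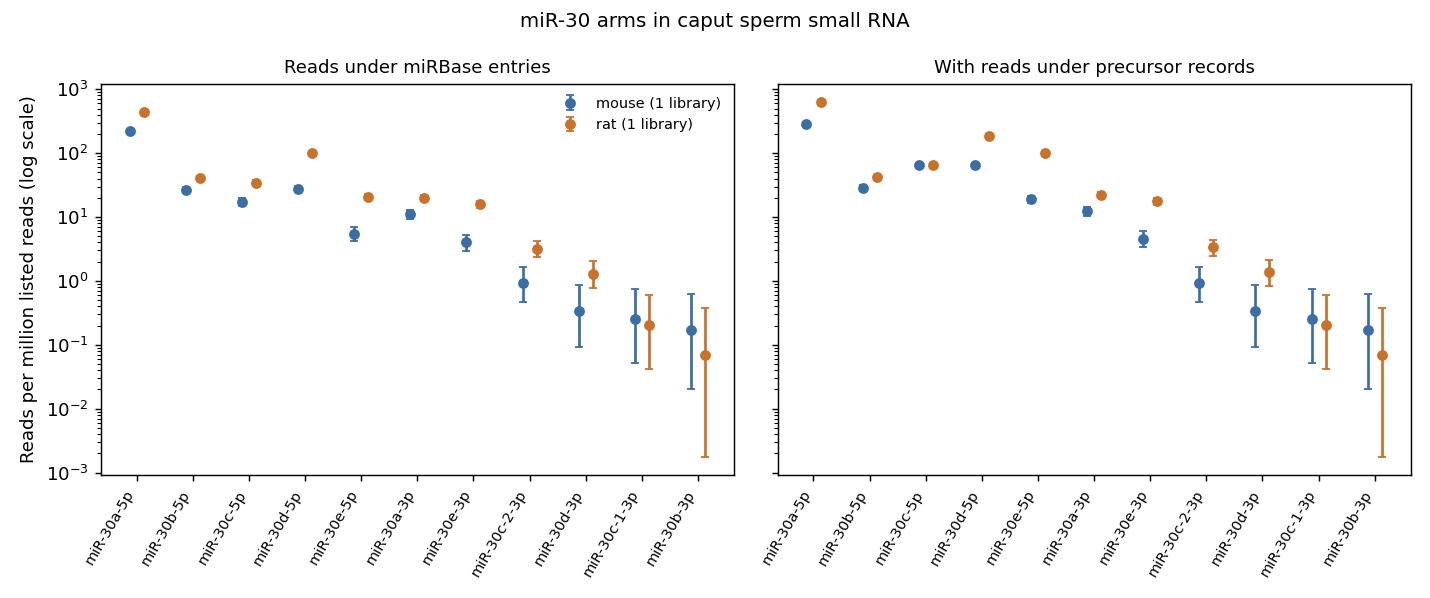
Level of each miR-30 arm in rpm (log scale) in the mouse and rat libraries, by miRBase entry (left) and with reads under precursor records (right). Points are 1 library each and bars are exact 95% counting intervals. miR-30c-5p is at 17.3 and 34.6 on the left and at 64.7 and 65.9 on the right, while miR-30e-5p in rat moves from 20.7 to 99.98.

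The make-up of the 5p reads moved accordingly, and this share needs no outside reference. By entry name, miR-30a gave 74.0% of mouse and 68.9% of rat 5p reads. Across all reads it gave 61.5% (60.2 to 62.8) and 61.7% (61.0 to 62.5), equal within counting error. Across all reads miR-30c gave 14.1% in mouse and 6.44% in rat, and miR-30b 6.16% and 4.11%. miR-30d gave 14.1% and 18.0%, and miR-30e 4.14% and 9.76%. So miR-30c and miR-30b held more of the 5p reads in the mouse library, and miR-30d and miR-30e more in the rat library.

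The rat-to-mouse ratios of the members were next set beside those of microRNAs listed in both libraries. By entry name, 3 of the 7 miR-30 arms with at least 100 reads over both libraries were at least 2-fold higher in rat (miR-30d-5p, miR-30e-5p and miR-30e-3p), and 0 were at least 2-fold lower. Among the 86 such microRNAs whose entry names paired between the species, 51.2% were 2-fold higher and 15.1% were 2-fold lower. A higher level in rat was thus as common among these 86. MicroRNAs whose names did not pair, such as miR-191-5p, were left out. Some paired names gave other ratios by core sequence. miR-10b-5p was at log2 -13.2 by name and -2.55 by core, and miR-148b-3p at 4.64 and -0.67. The members' median log2 ratio was 1.0 and that of the 86 was 1.01. miR-30a-5p and miR-30c-5p lay just under the 2-fold line.

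When reads were instead assigned by core sequence (bases 2 to 19) whatever their entry, 4 of 7 were at least 2-fold higher, with miR-30a-5p added, against 45.7% of 94 microRNAs, and 0 were lower, against 19.1%. The medians were then 1.15 for the members and 0.80 for all. The 94 included miR-6240 (log2 -3.02) and miR-3470b (-3.98), whose rat reads all lay outside miRBase entries. Neighbours in ratio were taken by entry name, outside the family, among 38 microRNAs with at least 100 reads in each library. Nearest to the family's 1.11 by name were miR-143-3p (1.15), miR-205-5p (1.01), miR-672-5p (0.99), miR-200b-3p (1.34) and miR-141-3p (0.87). By core sequence miR-205-5p was at 0.47 and miR-200b-3p at 0.07, while miR-672-5p (0.92) and miR-141-3p (0.86) moved little.

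**Figure D2:**
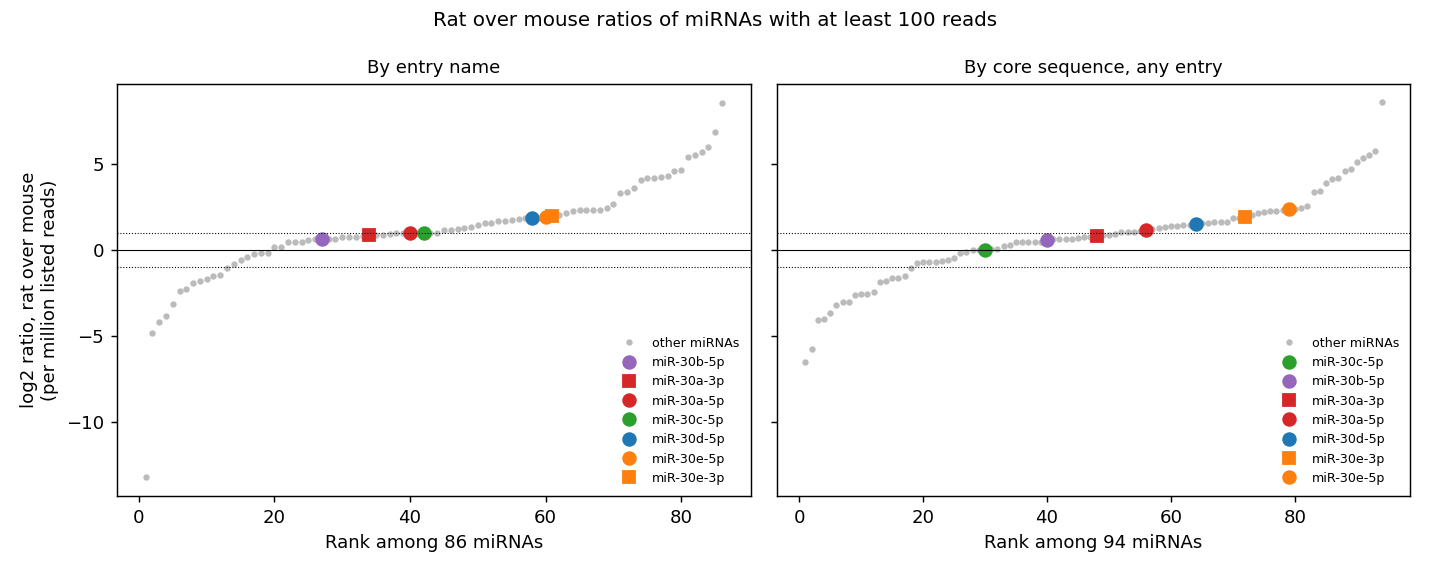
Log2 ratios of rat over mouse rpm for microRNAs with at least 100 reads, ranked from low to high, by entry name (86) and by core sequence (94). Dotted lines mark 2-fold, and miR-30 arms are coloured (circles 5p, squares 3p). The members sit in the middle and upper part of the range, and miR-30c-5p falls to near 0 on the right.

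The 5p arms differed in length from member to member. The forms that carry this are shown as read, with bases beyond the annotated mature end in capitals. The first pair is the short and the long form of miR-30a-5p, the second the same forms of miR-30e-5p, and the last the leading form of miR-30c-5p.
miR-30a-5p, 20 nt: tgtaaacatcctcgactgga
miR-30a-5p, 24 nt: tgtaaacatcctcgactggaagCT
miR-30e-5p, 20 nt: tgtaaacatccttgactgga
miR-30e-5p, 24 nt: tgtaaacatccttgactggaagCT
miR-30c-5p, 24 nt: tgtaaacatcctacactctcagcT
The short form of miR-30a lacks the last 2 annotated bases, and the 24-nt forms of miR-30a and miR-30e run 2 bases past the annotated end.

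The 20-nt form of miR-30a-5p was the most abundant family sequence in each library, with 2342 mouse reads (41.6% of all miR-30 reads) and 4057 rat reads (25.9%). Next in mouse were the 24-nt forms of miR-30c-5p, with 506 reads, and of miR-30a-5p, with 479. In rat the 24-nt form of miR-30a-5p had 1986 reads and its full-length 22-nt form 968, against 111 in mouse. The annotated 22-nt strand was therefore a minor form of miR-30a in both libraries.

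The ratio of 20-nt to 24-nt reads decreased from member to member in the order miR-30a, miR-30d, miR-30e in both libraries. For miR-30a-5p it was 4.89 in mouse (4.43 to 5.41) and 2.04 in rat (1.94 to 2.16). For miR-30d-5p it was 224 against 299 reads, or 0.749, in mouse and 789 against 864, or 0.913, in rat. For miR-30e-5p, 1 base from miR-30a, it was 33 against 109, or 0.303 (0.199 to 0.451), in mouse and 56 against 853, or 0.0657 (0.0492 to 0.0861), in rat. Between the libraries the intervals did not overlap for miR-30a and miR-30e, with fewer 20-nt reads relative to 24-nt reads in rat, and they overlapped for miR-30d.

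miR-30b and miR-30c showed almost none of the 20-nt form. For miR-30c-5p, 0 mouse reads and 10 rat reads were the exact 20-nt form, beside 506 and 402 of 24 nt. Its mature strand is 23 nt, and the exact form of 21 nt had 19 mouse and 166 rat reads. For miR-30b-5p, 22 nt was the commonest length, with 90.7% of its mouse reads and 78.6% of its rat reads, and 0 exact reads of 24 nt were listed in either library. Each member thus kept its commonest length in both species: 20 nt for miR-30a, 22 nt for miR-30b and 24 nt for miR-30c, miR-30d and miR-30e.

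**Figure D3:**
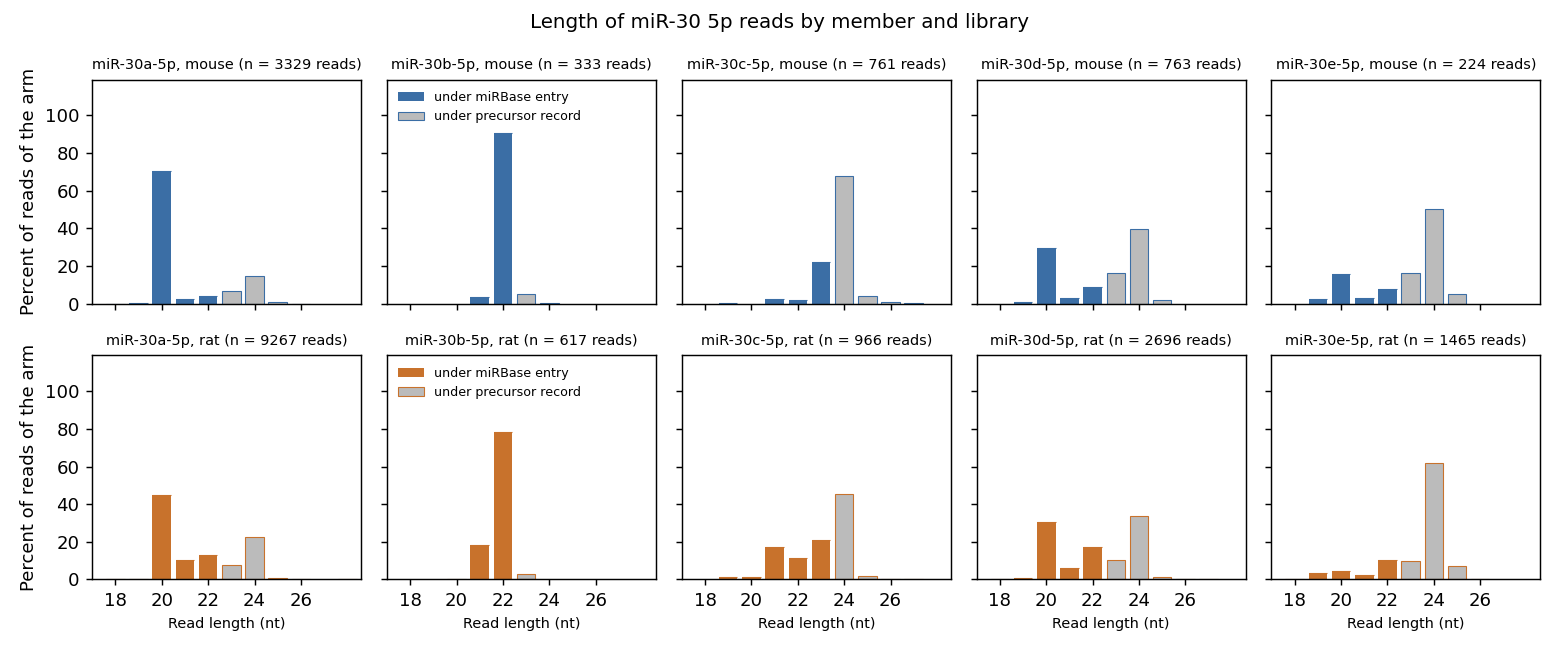
Read length of the 5 miR-30 5p arms (columns) in mouse (top) and rat (bottom), as percent of the reads of each arm, coloured under miRBase entries and grey under precursor records. The axis ends at 28 nt, beyond which rat had 24 reads and mouse 0. The 20-nt bar leads for miR-30a, the 22-nt bar for miR-30b and the 24-nt bar for the others.

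Reads that ended 2 nt or more before the annotated end made up 71.0% of miR-30a-5p in mouse and 45.5% in rat, and 30.5% and 31.2% of miR-30d-5p. They made up 17.9% and 7.99% of miR-30e-5p, and 2.76% and 19.98% of miR-30c-5p. Across other microRNAs the median was 2.93% in mouse (56) and 4.63% in rat (79), and 2 and 7 of them exceeded miR-30a-5p. The 2 in mouse were miR-6240 (99.2%) and miR-690 (89.9%), whose rat reads all lay outside miRBase entries. The short ends of miR-30a were thus near the top of the range in both libraries, while those of miR-30b, at 0% and 0.162%, were near its bottom.

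At the other extreme, 24 rat reads in 8 sequences were longer than 28 nt and ran from the 5p arm toward the hairpin loop. The commonest had 13 reads, and the longest was 32 nt.
miR-30a-5p, 31 nt: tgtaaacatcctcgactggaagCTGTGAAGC
The capitals again mark the bases beyond the mature end. The longest miR-30 read in mouse was 27 nt.

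Start sites were nearly fixed on the 5p arm, where the start sets the seed. Counting all reads, 0.758% of mouse and 0.580% of rat 5p reads of the family began away from the annotated base. The share was 0% in both libraries for miR-30b-5p and miR-30c-5p, and 2.23% and 2.66% for miR-30e-5p. Of the arms with at least 100 reads over both libraries, miR-30a-3p had the highest share, with 15.8% of 146 mouse reads and 14.8% of 325 rat reads beginning elsewhere. All of these, 23 mouse and 48 rat reads, began 1 base late, which moves the seed by 1 base. Among the rare arms, 3 of 20 rat reads of miR-30d-3p and 1 of 11 mouse reads of miR-30c-2-3p were shifted. Other microRNAs had medians of 0.228% and 0.428%, and 8 of 56 and 13 of 79 exceeded miR-30a-3p. Those in mouse included miR-1195 (83.7%), miR-690 (81.0%), miR-3470b (75.4%), miR-6240 (70.6%) and miR-3473b (67%). All rat reads with these core sequences lay outside miRBase entries, so they are weak comparators. The others above it in mouse were miR-101a-3p, miR-183-5p and miR-10a-5p.

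The share of reads from the 3p arm also differed between members. In all reads, the 3p arm gave 3.91% (3.42 to 4.45) of the family in mouse and 4.18% (3.87 to 4.51) in rat, which overlap. It gave 19.4% (14.9 to 24.6) of miR-30e in mouse and 14.9% (13.3 to 16.7) in rat, the highest share of any member. The 3p shares of miR-30a were 4.201% and 3.39%, those of miR-30d 0.522% and 0.736%, and those of miR-30b 0.597% and 0.162%. For miR-30c they were 1.81% (0.991 to 3.01) and 5.11% (3.84 to 6.64), higher in rat beyond counting error, but by entry name they were 6.42% (3.56 to 10.5) and 8.98% (6.74 to 11.7), which overlap. By entry name, where most long 5p reads of miR-30e are missing, its 3p share read 42.3% and 43.4%.

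The 3′ ends also carried bases that did not match the record. An added base that happens to match the hairpin cannot be seen this way, and the tables allow at most 2 mismatches a read. Among all 5p reads of the family the last base was mismatched in 4.66% in mouse (4.11 to 5.25) and 9.52% in rat (9.05 to 10.0004), far above the rate inside the reads. miR-30d-5p had 7.99% and 14.2%, with A the commonest base (4.59% and 9.83%), and miR-30e-5p 10.3% and 13.9%, with U the commonest (7.14% and 8.05%). Under its miRBase entry alone, A was instead the commonest for miR-30e-5p, with 3 mouse and 24 rat reads against 0 and 9 for U. miR-30a-5p had 3.06% and 8.10%, miR-30c-5p 6.04% and 7.25%, and miR-30b-5p 6.01% and 3.40%. The rat value was above the mouse value beyond counting error for miR-30a and miR-30d, and the intervals overlapped for the other members.

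Pooled over arms, mismatched ends were more frequent on the 3p side, 30.9% of reads in mouse and 26.7% in rat. Nearly all of these reads were of miR-30a-3p and miR-30e-3p. miR-30c-2-3p had such ends in 0 of 11 mouse and 3 of 49 rat reads, and miR-30d-3p in 0 of 4 and 4 of 20. miR-30b-3p and miR-30c-1-3p, with at most 3 reads in a library, had 0. miR-30e-3p had 50% (36.1 to 63.9) of 54 mouse reads and 40.1% (34.0 to 46.3) of 257 rat reads, and the mismatched base was U in 27 of the 27 mouse reads and 86 of the 103 rat reads. The leading form with such an end is shown beside the matching one, with the mismatched base in capitals. It had 20 mouse and 65 rat reads, and the matching form 22 and 80. Whether the base was added, substituted or misread was not tested.
miR-30e-3p, matching: ctttcagtcggatgtttacagc
miR-30e-3p, mismatched end: ctttcagtcggatgtttacagT
miR-30a-3p, its near twin, had 28.1% and 20%, with U in 18.5% and 11.4% of reads and A in 9.59% and 7.69%.

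Under miRBase entries alone, 2.80% of mouse and 7.58% of rat miR-30 reads had a mismatched last base, beside 1.85% and 5.09% of the reads of all other microRNAs, so the other microRNAs also had the higher share in the rat library. Of 54 other microRNAs with at least 100 reads in mouse and 80 in rat, 2 and 1 had a higher share than miR-30e-3p, and 14 and 9 a higher share than miR-30d-5p. By entry miR-30e-3p stood at 42.6% (28.3 to 57.8) of 47 mouse reads, below that minimum, and 33.6% of 232 rat reads. For miR-30a-5p, the leading member, 40 and 33 of the other microRNAs were higher. Their medians were 2.62% and 3.70%.

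**Figure D4:**
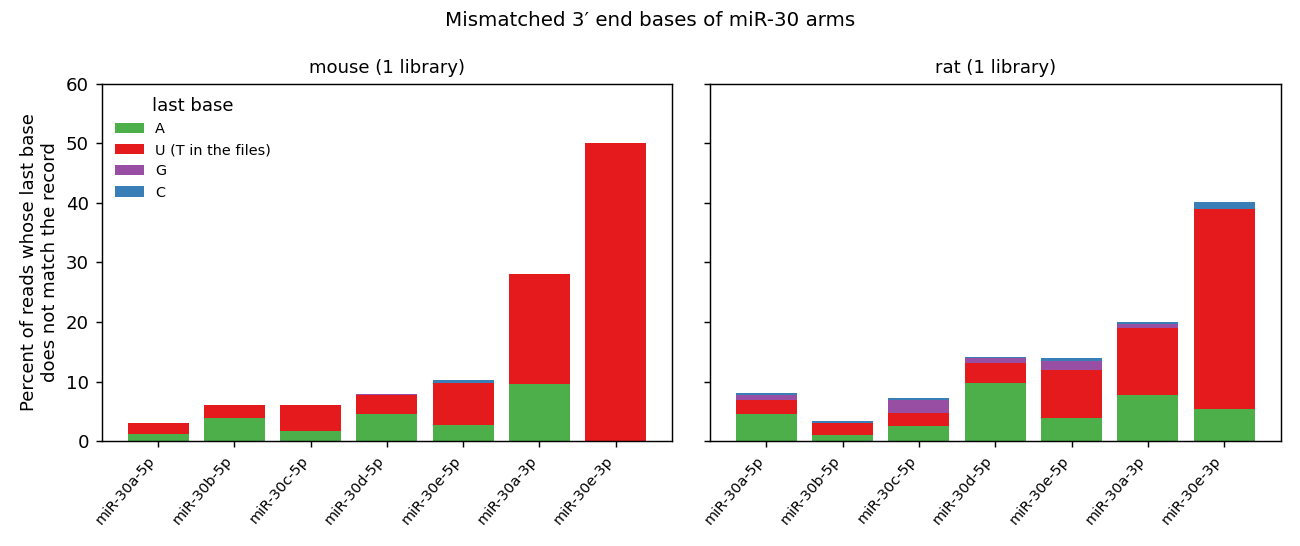
Percent of reads of each miR-30 arm whose last base does not match the record, split by that base, in the mouse and rat libraries, precursor records included. U makes up most of the bars of miR-30e-3p, which reach 50% and 40.1%, and A leads for miR-30d-5p.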

How the data were processed

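RNA was isolated with Trizol and the 18 to 45 nt fraction sequenced on an Illumina instrument, per the labels' protocols. The deposited tables hold raw read counts per distinct sequence, each with 1 matched entry of at most 2 mismatches, per the file headers. Bowtie 0.12.7, mm9 and rn5 are named in the submitters' processing notes, with no role or order, and adapter removal is not given in the sources used here. Both libraries were deposited by the authors without scaling, and their whole-number totals of 11760708 and 14652889 differ.

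Family rows were taken by entry name. All listed sequences were then aligned without gaps to each mature arm, allowing a start shift of up to 3 nt, at least 15 nt of overlap and at most 2 mismatches outside the last 2 bases. Reads under precursor records were included after the data were seen, and each is reported apart. Mature arms of miR-30b and miR-30d were taken from the files' own reads. The 7 other arms matched the RefSeq table. Mouse sequences served for both species. Reads that fit more than 1 arm equally (1 in mouse, 15 in rat) counted for the family only. Log2 ratios used 0.5 added reads. Shares have Clopper-Pearson intervals and ratios exact conditional binomial ones, at a level of 95%. A count of 0 was bounded at 3 reads.

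Named were all arms with a read, microRNAs with the family seed, the leading sequences, and the 5 microRNAs nearest in ratio. The members and lists were chosen with earlier results of these data known. Alternatives were the reference total, pseudocount, read minimum, mismatches and distinct sequences. The alignment was tested on simulated data. Python 3.11.15, pandas 2.3.3 and SciPy 1.17.1 were used.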

Additional observations from a re-analysis of the deposited data

Results flagged for a closer look

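Reads that align to a miR-30 arm but lie outside its miRBase entries, under GenBank precursor records, came to 1955 in mouse and 5799 in rat, where a count of 0 would allow 3. They are outside a count by entry name, and no control library was available to set beside them.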

How the results depend on the processing

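For 19 summary values, 39 comparisons under settings chosen at the outset stayed within counting error, or within 1.5 times a reported count. In 14 such comparisons the value moved. Under settings added after seeing the data 2 stayed and 17 moved. The log2 ratios of the 11 single arms were tallied apart. Under settings chosen at the outset 16 comparisons stayed, 15 moved and 2 changed sign. With precursor records counted, 7 arm ratios stayed and 4 moved. The log2 ratio of the family (1.11) was 2.63 against miRBase reads, 0.70 against these without miR-10, 0.51 without SNORD58 (listed in mouse only), 0.90 without the most abundant sequence, 1.03 with 0 mismatches and 1.76 by distinct sequences. With any entry counted and SNORD58 left out, an alternative chosen after seeing the data, it was 0.55. The count of arms 2-fold higher in rat (3) was 5 with a minimum of 20 reads and 5 with none, when 1 arm was also 2-fold lower, and 7 against miRBase reads. Counting precursor records, also chosen after seeing the data, moved the 5p shares to 61.5%, 6.16%, 14.1%, 14.1% and 4.14% for miR-30a to miR-30e in mouse (from 74.0%, 8.997%, 5.86%, 9.31% and 1.84%) and to 61.7%, 4.11%, 6.44%, 18.0% and 9.76% in rat (from 68.9%, 6.46%, 5.47%, 15.9% and 3.27%). It moved the 3p share from 5.33% to 3.91% in mouse and from 6.01% to 4.18% in rat, shifted starts from 0.201% to 0.758% and from 0.183% to 0.580%, and mismatched ends from 1.41% to 4.66% and from 6.67% to 9.52%. With 0 mismatches, rat miR-30a was 70.3% and miR-30d 14.2% of 5p reads, and the 3p share was 4.002% in mouse and 5.10% in rat. Against miRBase reads the ratios of miR-30b-3p (0.46) and miR-30c-1-3p (1.20), which rest on 1 to 3 reads, changed sign. Beyond this construction of each alternative, the cause was not tested.

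No paired analysis was possible because each species had 1 library. Depth limits the rare 3p arms, and a low value can also mean that no entry was matched in the tables.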
